A study of Mus musculus with 76 samples.

Results

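Collagens and other extracellular matrix genes were followed in the liver and visceral white adipose tissue (WAT) of mice with a single-base change in Fnip2. Members were all genes whose symbol is Col, a number, a and a number, and 28 further genes for matrix proteins and for the enzymes that fold, cross-link or cleave them. The tables of both tissues held 68 such genes, 40 collagens and all 28 others, among 20287 gene symbols. In WAT 67 of them were listed and 57 reached the mean normalised count of 10 needed for testing, and in liver 57 were listed and 43 tested. Just below and above that minimum lay Col11a2 with a mean of 8.90 and Col7a1 with 11.0 in WAT, and Col4a4 with 8.95 and Col20a1 with 10.8 in liver.

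The study asked how homozygosity for the C allele of Fnip2, a partner of folliculin in nutrient signalling to mTORC1, alters tissues of the mouse. Fnip2C/C mice carried a T-to-C substitution in the miR-181b-5p site of the Fnip2 3′UTR, made with CRISPR/Cas9 in C57BL/6 mice together with a second substitution in the guide's PAM, and Fnip2T/T mice kept the T allele. All mice were females with free access to food. RNA came from 4 C/C (mice 590, 593, 599 and 638) and 5 T/T (mice 607, 608, 609, 657 and 658) WAT samples and from 5 C/C and 5 T/T livers, and 6 mice gave both tissues. The change is present in every cell of the animal. In pieces of whole tissue, fewer cells of a type and less RNA per cell cannot be told apart.

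Collagens are trimers of chains with glycine at regular intervals, the first of each triplet of residues. The fibrillar collagens among the members are types I, III, V and XI, and the divergent XXIV and XXVII. They have a long helix, unbroken in the first 4 types, and form the fibres between cells. Type IV collagen, laminins, nidogens and perlecan instead build the basement membrane, the thin sheet that wraps every adipocyte and lies under endothelium. Prolyl hydroxylases and the chaperone HSP47 (Serpinh1) act on the chains in the endoplasmic reticulum, lysyl oxidases cross-link them outside the cell, and metalloproteinases and their TIMP inhibitors set how long they last. In fat most matrix is made by fibroblasts, mural cells, endothelium and the adipocytes themselves, and in liver largely by stellate and endothelial cells, while hepatocytes secrete plasma fibronectin.

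The glycine repeat can be read in the coding sequences, and it is shown for Col1a1 as a fibrillar chain, and for Col4a2, Col15a1 and Col18a1 as the 3 basement membrane collagens that were lower in C/C WAT. Each line gives the first 27 bases of the longest run of codon triplets that open with a glycine codon, in the sense strand of the mRNA, with the glycine codons in capitals.
Col1a1: GGCcccatgGGTccttctGGTcctcgt
Col4a2: GGGacacgaGGAgatgctGGActtcca
Col15a1: GGAcccccgGGGtctcctGGGgaggat
Col18a1: GGAcctgcaGGCcttcctGGTgtacct
In the GENCODE vM21 transcript with the longest coding sequence, this run held 338 triplets in Col1a1 and between 216 and 344 in the 10 fibrillar chains. The 6 type IV chains were interrupted, with a longest run of 39 to 66 triplets and 22 to 27 separate runs of 4 or more triplets each, and Col15a1 and Col18a1 had a longest run of 30. Col4a1 and Col4a2 are neighbours on mouse chromosome 8 of GRCm38, at chr8:11198423-11312826 on the minus strand and chr8:11312805-11449287 on the plus strand, so that they are transcribed in opposite directions from annotated starts 21 bases apart, with their first bases overlapping. These places are from GRCm38, whereas the submitters' notes name GRCm39, and the tables hold no coordinates.

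Collagen mRNAs are textbook targets of the miR-29 family, whose 3 mature forms in RefSeq share 1 seed, written in capitals (bases 2 to 8).
mmu-miR-29a-3p: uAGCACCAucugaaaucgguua
mmu-miR-29b-3p: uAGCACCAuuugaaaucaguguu
mmu-miR-29c-3p: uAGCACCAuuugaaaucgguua
The letters complementary to this seed, TGGTGCT, were sought on the sense strand of the 3′UTR of the same GENCODE transcripts. They were found in 23 of 57 members tested in WAT (40.4%) and in 1620 of 11322 tested genes with a transcript (14.3%), at median 3′UTR lengths of 959 and 998 bases. The 3′UTR of 7 of 8 fibrillar chains, 6 of 7 basement membrane collagens and 4 of 14 other collagens held them, against 6 of 28 members that are no collagens. One match each of 4 chains is shown with its flanks (Col5a3 held 3 matches and Col4a2 held 2), because 2 of these genes were lower in C/C WAT and 2 were not.
Col4a2: ggccacgtTGGTGCTtatccttc
Col5a3: gggctcctTGGTGCTgaggctct
Col4a1: tcacaacaTGGTGCTactccccc
Col3a1: tgtctcaaTGGTGCTataataaa
The match was present in 4 of the 11 members called lower in WAT and in 19 of the 44 not called, or 36.4% and 43.2%. A match of 7 letters is a description and not a tested site, and transcripts annotated with no 3′UTR, such as those of Col18a1 and Col6a3, count as having none.

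Reads recovered from the deposited values, which are gene counts divided by 1 size factor per library, summed to 4180209 to 6277644 per WAT library and 5583041 to 7523200 per liver. Adipocyte markers (8 of 8 found in every WAT library) summed to normalised counts of 72024 to 229071 in WAT and 115 to 233 in liver, and hepatocyte markers to 527928 to 720700 in liver. One WAT library stood apart in ovary markers. In C/C mouse 593 they summed to 6173, against 70.6 to 141 in the other 8, and its adipocyte markers were the lowest. In those 8 libraries 2 to 4 of the 9 listed ovary markers, Fshr and Cyp19a1 always among them, were at 0, and in mouse 593 none was. Counts are therefore also given without mouse 593. The limma test used below called 32.1% of all genes in WAT, 17% lower and 15.1% higher in C/C. Adipocyte markers moved with genotype there. Of the 8, 6 were lower in C/C by the limma test used below (Lep, Plin1, Retn, Adipoq, Lipe and Fabp4) and none was higher, at a median difference of -1.16 on the log2 scale, with Plin1, which coats the lipid droplet, at 1315 ± 619 (SD, n = 4) in C/C and 3679 ± 540 (SD, n = 5) in T/T. Their sums overlapped, at 72024 to 229071 in C/C and 108836 to 197619 in T/T, with Cfd, the most abundant of the 8, at 0.52 and not called. Fibroblast progenitor markers summed to 3480.1 to 6050 in C/C and 2593 to 3468 in T/T WAT, without overlap. Of these 9 markers 3 were higher (Pdgfra, Pi16, Cd34) and 2 lower (Pdgfrb, Thy1) by the test used below. Endothelial markers summed to 2448 to 4109 in C/C and 3692 to 5086 in T/T, with 3 of 7 lower (Tie1, Pecam1, Kdr). Of smooth muscle and pericyte markers 1 of 7 was higher and 2 were lower, and of macrophage markers 1 of 8 was higher and 3 were lower, with overlapping sums in both. Hepatocyte markers, at 203 to 655 in C/C and 828 to 2888 in T/T, and stellate markers, at 882 to 1073 and 1347 to 1788, had sums without overlap, with 2 of 3 tested hepatocyte markers (Alb and Cyp2e1) and 1 of 5 tested stellate markers (Des) lower and none higher. The tested hepatocyte marker that was not called was at 1.37, and 3 of the 5 stellate markers were above 0, with a median of 0.17. Mesothelial markers summed to 762 to 1935 in C/C and 532 to 1850 in T/T, with 1 of 11 higher and 1 lower. Oviduct and uterus epithelium markers spread widely in T/T, at 26.3 to 422 with a median of 42.6, against 78.6 to 198 in C/C. Cholangiocyte markers, some of them also mesothelial, summed to 177 to 377 in C/C and 90.4 to 756 in T/T. Small nucleolar RNAs took 0.0276% to 0.154% of the reads in C/C against 0.00949% to 0.0196% in T/T. The part of these shifts in the matrix results was not tested.

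In WAT, 13 of the 57 tested members differed between genotypes, 11 lower and 2 higher in C/C. The lower genes were perlecan (Hspg2), Lamb1, Col4a2, Col15a1 and Col18a1 of the basement membrane, Serpinh1 and P4hb of collagen folding, and Col16a1, Lum, Col5a3 and Loxl1, and the higher genes were Timp2 and Tnxb. The abundant chains of fibrous matrix, Col1a1, Col1a2, Col3a1 and Col6a1, did not pass the test, although Col1a2 was called lower without T/T mouse 609 (-0.55, limma adjusted p = 0.0497) and with library weights (-0.58, limma adjusted p = 0.0415). The test was limma on log2(normalised count + 1) with Benjamini-Hochberg adjustment over all 12798 genes, and a gene was called at an adjusted p under 0.05. The same test called 32.1% of all genes, 17% lower and 15.1% higher, against 22.8% of the members, 19.3% lower and 3.51% higher, so the members' shares called and called higher lay below those of all genes, and the share called lower close to it. The median difference was 0.079 over the members and 0.019 over all genes on the log2 scale. The libraries of the genotypes did not overlap for 9 of the 57 members (15.8%) and for 26.1% of all genes. Without mouse 593, 13 of 55 tested members were called (23.6%, beside 29.6% of all genes), 12 of them shared, with Col5a3 lost and Col7a1 gained. Without T/T mouse 609 the members' share called was 33.3%, beside 32.8% of all genes, and no longer below it.

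**Figure D1:**
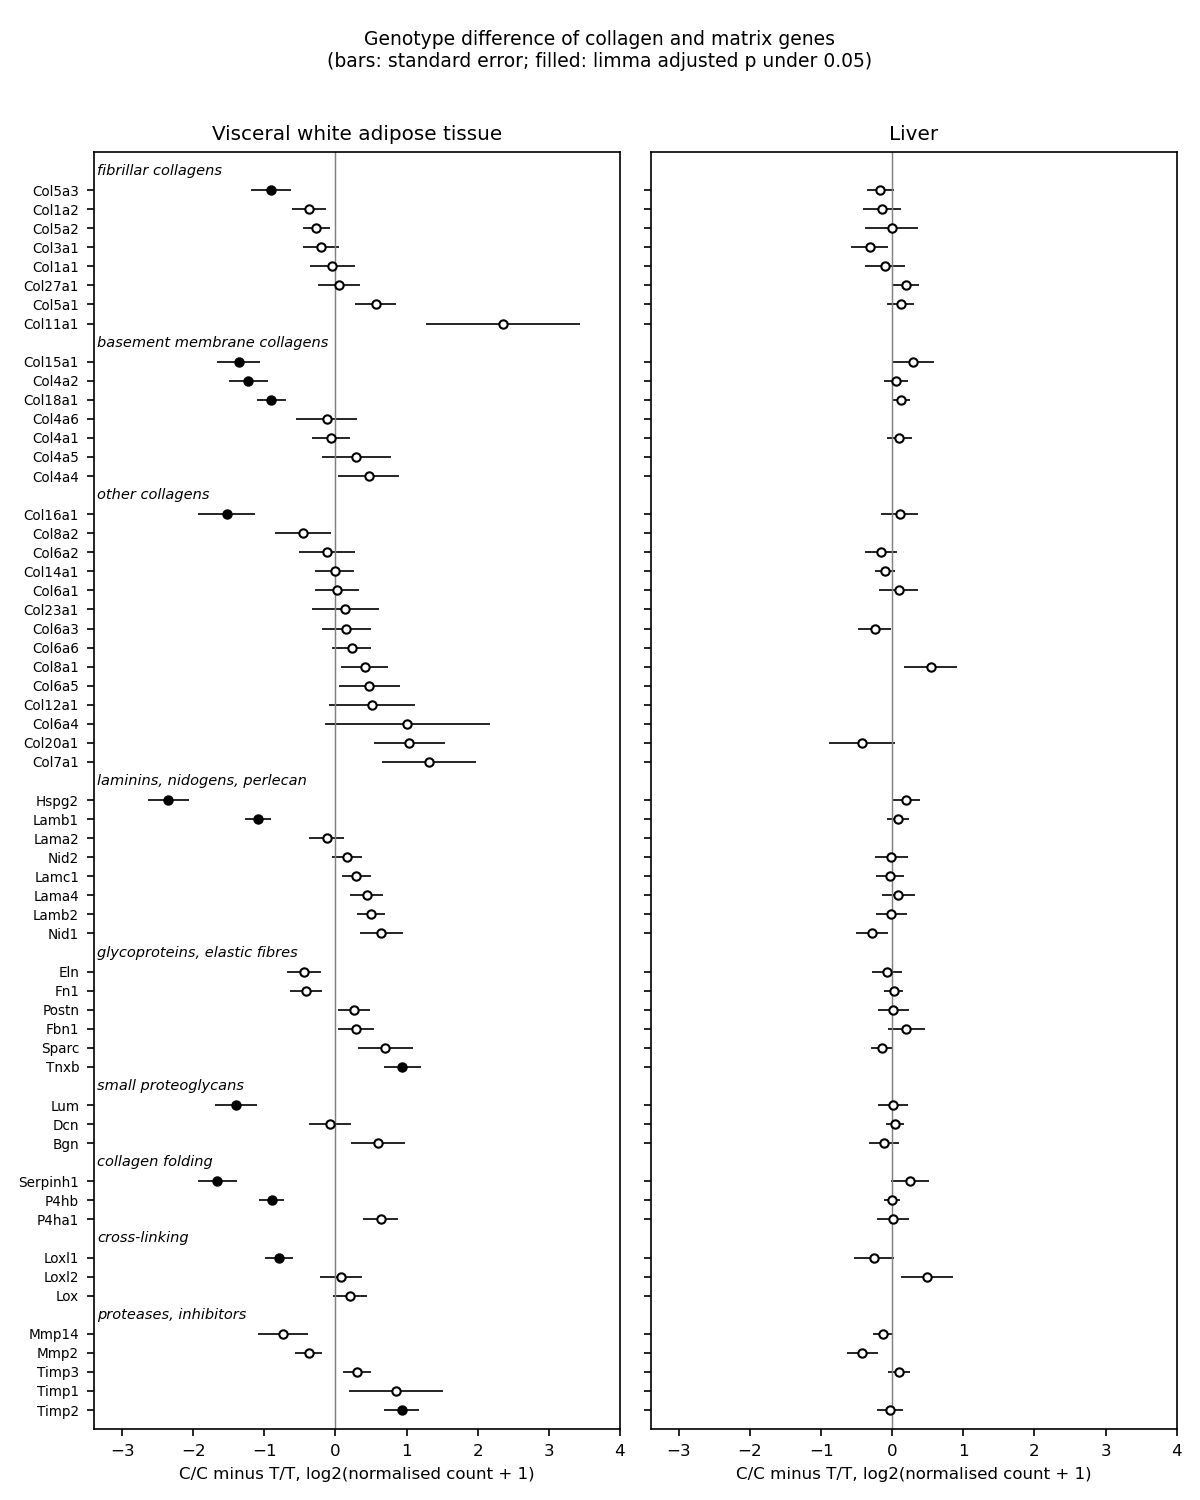
Difference of C/C minus T/T in log2(normalised count + 1) for each of the 57 collagen and matrix genes tested in WAT (left) and the 42 of them also tested in liver (right), grouped by role, with bars of 1 standard error and filled points for limma adjusted p under 0.05. The 13 filled points are all in WAT, from Hspg2 at -2.35 to Tnxb at 0.94, and the liver points lie between -0.43 and 0.54.

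The largest decrease was in 1 basement membrane gene, Hspg2. Of the 8 laminin, nidogen and perlecan genes 2 were called lower (25%, beside 17% of all genes). In that group 5 differences were above 0, and the median was 0.23. Hspg2 encodes perlecan, the heparan sulphate proteoglycan that ties the laminin and type IV collagen networks together. Its normalised counts were 60.0, 33.7, 47.7 and 62.1 in the C/C libraries and 254, 273, 152, 474 and 221 in the T/T libraries, in the order of mouse numbers given above, which is kept throughout. Every C/C library was below every T/T library, and the difference was -2.35 ± 0.29 (SE) on the log2 scale with limma adjusted p = 0.000508. Lamb1, the β1 chain of laminin, was counted at 613, 386, 517 and 628 in C/C and 981, 1228, 1172, 1143 and 1116 in T/T. These groups did not overlap either, and Lamb1 was lower by 1.09 ± 0.18 (limma adjusted p = 0.00145). None of the other laminin chains was called, with Lamb2 (β2) at 0.50 (limma adjusted p = 0.0667), Lama4 at 0.44, Lamc1 at 0.29 and Lama2 at -0.12, and the linkers Nid1 and Nid2 at 0.65 and 0.16 were not called either. Lamb2 was called higher by DESeq2 (0.50, DESeq2 adjusted p = 0.0353), with library weights, and without C/C mouse 590 (0.58, limma adjusted p = 0.0498) or T/T mouse 609 (0.59, limma adjusted p = 0.0301).

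Among the basement membrane collagens 3 of 7 tested genes were lower (17% of all genes), none was higher (15.1% of all genes), and the median difference was -0.12. Col15a1, whose product links basement membranes to fibrils, was counted at 359.9, 214, 579 and 175 in C/C and 657, 707, 1054, 759.6 and 709 in T/T. The highest C/C library lay below the lowest T/T library, with a difference of -1.36 ± 0.30 (limma adjusted p = 0.00537). Col18a1, the precursor of endostatin, had 143, 122, 156 and 91.4 in C/C and 236, 259.8, 298, 203 and 196 in T/T, again without overlap, and fell by 0.90 ± 0.20 on the log2 scale (limma adjusted p = 0.00566). Col4a2, the α2 chain of the common type IV trimer, was at 1258, 824, 1092 and 566 in C/C and 1479.5, 2619, 3085, 2039.8 and 1646 in T/T. It fell by 1.23 ± 0.28 (limma adjusted p = 0.0058), and its groups did not overlap.

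Its partner did not pass the test. Col4a1, which supplies the other α chains of the same trimer, was counted at 2757, 2565, 3059.9 and 2977 in C/C and 2208, 3273, 5559, 2379.9 and 2333 in T/T, a difference of -0.058 ± 0.27 (limma adjusted p = 0.885). All C/C values of Col4a1 lay within the T/T range, which T/T mouse 609 widened. Within each library the ratio of Col4a2 to Col4a1 was 0.456, 0.321, 0.357 and 0.190 in C/C and 0.670, 0.800, 0.555, 0.857 and 0.705 in T/T, so the ratio had no overlap in WAT. In liver it was 0.659 ± 0.0501 (SD, n = 5) in C/C and 0.683 ± 0.0855 (SD, n = 5) in T/T and overlapped. The type IV chains of specialised basement membranes, such as that of the glomerulus, gave differences of 0.47, 0.30 and -0.12 for Col4a4, Col4a5 and Col4a6, none called.

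The same ratio was taken for 9 pairs of genes whose products share a trimer or an enzyme, a comparison chosen after the values were seen and given as a description without a test. In WAT 4 of the 9 ratios did not overlap between genotypes, and in liver none did, where single genes did not overlap in 26.1% and 0.248% of all genes tested. In 3 of the 4 the first gene of the pair (Col4a2, Lamb1 or P4hb) was already without overlap on its own. Besides Col4a2 to Col4a1, these were Lamb1 to Lamc1 with 1.73 ± 0.288 (SD, n = 4) in C/C and 4.53 ± 0.585 (SD, n = 5) in T/T, P4hb to P4ha1 with 1.78 ± 0.535 and 5.08 ± 1.03, and Col5a2 to Col5a1 with 0.265 ± 0.0378 and 0.482 ± 0.133. Col1a2 to Col1a1, Col6a2 to Col6a1, Col6a3 to Col6a1, Lamb2 to Lamc1 and Lama4 to Lamc1 overlapped in both tissues. A ratio of 3′ reads compares the same pair between libraries and is not the stoichiometry of the chains.

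**Figure D2:**
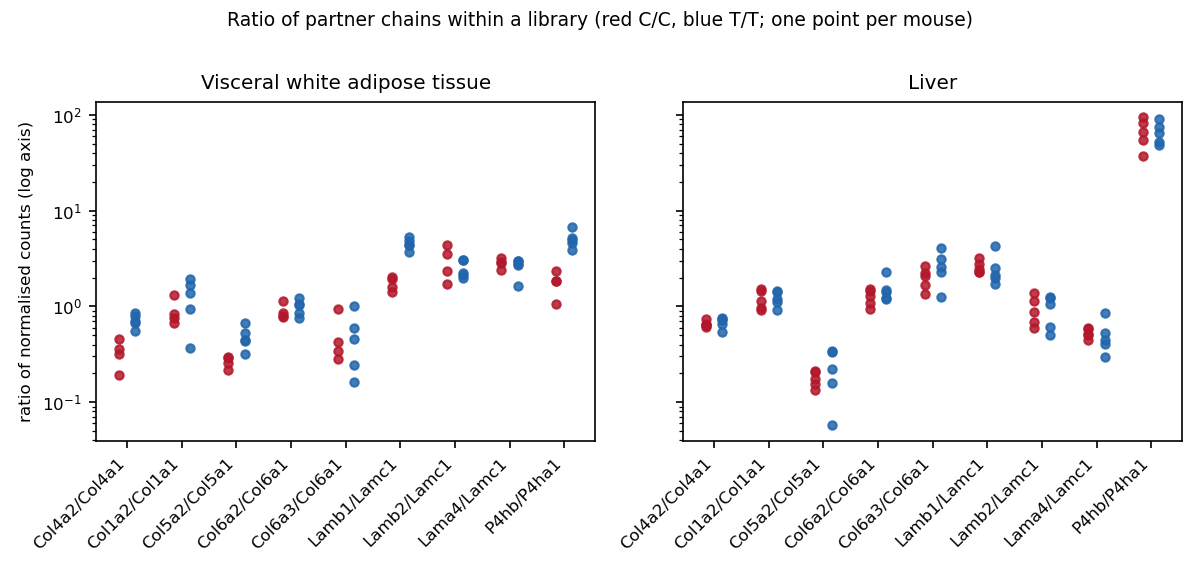
Ratio of the normalised counts of partner genes within each library, on a log axis, for 9 pairs in WAT (left) and liver (right), 1 point per mouse, red for C/C and blue for T/T. In WAT the red points lie below the blue points for Col4a2/Col4a1, Col5a2/Col5a1, Lamb1/Lamc1 and P4hb/P4ha1, and in liver all 9 pairs overlap.

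Of the 8 fibrillar collagens tested in WAT only Col5a3 was called, lower in C/C (12.5%, beside 17% of all genes called lower). Col5a3, a minor type V chain known from adipose tissue, had 272, 170.3, 380.5 and 273 in C/C and 339, 579.8, 853, 445 and 401 in T/T. The ranges overlapped at C/C mouse 599 and T/T mouse 607, and the difference was -0.91 ± 0.28 (limma adjusted p = 0.0264). The call was lost when C/C mouse 593, C/C mouse 638 or T/T mouse 608 was left out. Col1a1, the main chain of type I collagen, was at 991, 1555, 1648 and 2319 in C/C and 1223, 2189, 2934, 1151 and 1175 in T/T, with mice 608 and 609 well above the other T/T libraries. Its difference was -0.042 ± 0.32 (limma adjusted p = 0.932). Col3a1, the type III chain of reticular fibres, was at 1162, 951, 1408 and 1623 and 935, 1920.5, 2019, 1398 and 1255, a difference of -0.20 ± 0.25 (limma adjusted p = 0.565). These ranges overlapped over most of their width. Col1a2 (-0.37), Col5a2 (-0.27), Col27a1 (0.051) and Col5a1 (0.56) were not called, and Col11a1 is described with mouse 593 below.

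The remaining collagens were mostly uncalled, with 1 of 14 past the test (7.14%, beside 32.1% of all genes). Col16a1, a chain with many short helices that binds to fibrils, had 22.3, 42.1, 27.1 and 15.2 in C/C and 71.4, 88.5, 39.1, 53.5 and 169 in T/T. T/T mouse 609 fell just below C/C mouse 593, all other T/T libraries were above every C/C library, and the difference was -1.53 ± 0.40 (limma adjusted p = 0.0116). Col6a1, of the type VI microfilaments that surround adipocytes, was at 699, 889, 854 and 945 in C/C and 602, 1189.8, 1616, 652 and 515 in T/T. Its difference was 0.024 ± 0.30 (limma adjusted p = 0.961), with a sign that changed under quantile normalisation and under scaling to equal totals. Its partners Col6a2 and Col6a3 differed by -0.11 and 0.15. Col20a1, a fibril-associated chain, had 10.6, 24.3, 9.76 and 58.6 in C/C and 9.03, 10.7, 5.58, 10.9 and 10.6 in T/T, with mouse 638 highest and a difference of 1.04 ± 0.50 (limma adjusted p = 0.127). DESeq2 called it higher (1.46, DESeq2 adjusted p = 0.0315). The other 9 tested ranged from -0.46 (Col8a2) to 1.32 (Col7a1), and 10 collagens with a mean below 10 (Col4a3, Col9a2, Col9a3, Col11a2, Col13a1, Col19a1, Col22a1, Col24a1, Col26a1 and Col28a1) were not tested.

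Among the glycoproteins and elastic fibre genes 1 of 6 was called, higher in C/C (16.7%, beside 15.1% of all genes called higher). Tnxb, which encodes tenascin X, a spacer between collagen fibrils, was at 114, 148, 192 and 289 in C/C and 75.5, 127, 77.0, 103 and 79.6 in T/T. Only C/C mouse 590 fell below the highest T/T library, and the difference was 0.94 ± 0.27 (limma adjusted p = 0.0172), a call lost without C/C mouse 638. Sparc, a secreted protein that binds collagen, had 19344, 20672, 29719 and 39269.8 in C/C and 10985, 20104, 37512, 11842 and 10871 in T/T. The T/T values spread widely, and the difference of 0.70 ± 0.38 had limma adjusted p = 0.173. Leaving out T/T mouse 609, the highest of its group, brought Sparc past the threshold at 1.01 (limma adjusted p = 0.0248). So did quantile normalisation (0.89, limma adjusted p = 0.036) and library weights (0.96, limma adjusted p = 0.0335). Fn1, the gene of fibronectin, was at 328, 589, 535 and 681 and 574, 928, 644, 719.9 and 612, a difference of -0.41 ± 0.23 (limma adjusted p = 0.181). Eln, the gene of elastin, had 319, 201, 364 and 389 in C/C and 288, 490.3, 570.4, 407 and 397 in T/T, with overlapping ranges and a difference of -0.44 ± 0.24 (limma adjusted p = 0.171). Fibrillin 1 (Fbn1) at 0.29 and periostin (Postn) at 0.26 did not pass either.

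Of the 3 small leucine-rich proteoglycans, which bind collagen fibrils and regulate their width, 1 was called (33.3%, beside 32.1% of all genes). Lum, the gene of lumican, fell from 693, 513, 332, 631 and 753 in T/T to 295, 292, 193 and 122 in C/C, with no overlap and a difference of -1.40 ± 0.29 (limma adjusted p = 0.00415). Decorin (Dcn) was at -0.078 ± 0.30 (limma adjusted p = 0.858). Biglycan (Bgn) had 846, 2705, 1262 and 2407 in C/C and 832, 1159.7, 2170.1, 676 and 989 in T/T, a difference of 0.60 ± 0.38 (limma adjusted p = 0.246), with mouse 593 the highest of all 9 libraries.

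Collagen folding genes were lower in 2 of 3 cases, beside 17% of all genes. Serpinh1, the collagen-specific chaperone HSP47, was counted at 78.8, 63.6, 105 and 53.9 in C/C and 194, 208, 149.6, 314 and 362 in T/T. The groups were apart, and Serpinh1 fell by 1.66 ± 0.28 on the log2 scale (limma adjusted p = 0.00137). P4hb, protein disulphide isomerase and the β subunit of prolyl 4-hydroxylase, had 247, 202, 229.8 and 159 in C/C and 354, 378, 337, 434 and 440.3 in T/T, also apart, with a decrease of 0.90 ± 0.18 (limma adjusted p = 0.00311). P4ha1, the catalytic subunit of the same enzyme, was at 0.63 ± 0.24 (limma adjusted p = 0.0603), opposite in sign and not called. It was called higher under quantile normalisation (0.68, limma adjusted p = 0.0437) and with the mouse number term (0.71, limma adjusted p = 0.022). Of the cross-linking oxidases Loxl1, which acts on elastin, was at 273, 252, 243 and 201 in C/C and 328, 538, 522, 386 and 355 in T/T, lower by 0.79 ± 0.19 without overlap (limma adjusted p = 0.00884). Lox was at 286, 415, 503 and 417 and 342, 345, 562, 288 and 252, a difference of 0.21 ± 0.24 (limma adjusted p = 0.529), and Loxl2 differed by 0.079.

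Timp2, an inhibitor of metalloproteinases that also takes part in activating MMP2, was the other gene higher in C/C. Its normalised counts were 6723, 9213, 7471 and 10264 in C/C and 3115, 6850.0, 3783, 4202 and 4634 in T/T. Only T/T mouse 608 exceeded the lowest C/C library, and the difference was 0.93 ± 0.25 (limma adjusted p = 0.014). Mmp14, the membrane-bound protease of that activation, had 299.9, 424, 514 and 315 in C/C and 1339, 427, 317, 700.1 and 795 in T/T, with a wide spread in T/T and a difference of -0.74 ± 0.35 (limma adjusted p = 0.128). It was called lower without T/T mouse 609 (-0.99, limma adjusted p = 0.0283) and by DESeq2 (-0.88, DESeq2 adjusted p = 0.0454). Mmp2 at -0.38 and Timp3 at 0.30 were not called.

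For each of the 9 called genes without overlap the exact two-sided permutation test over the 126 groupings of the 9 libraries gave p = 0.0159, the smallest this design allows, and for the other 4 (Col5a3, Col16a1, Tnxb and Timp2) the exact p was 0.0317. Any gene without overlap, as were 26.1% of all genes, has p = 0.0159 in this permutation test. For those 9 genes it therefore adds no support to the calls. The calls were the same 13 genes under edgeR and DESeq2, which added 1 and 5 more. These were Col11a1 under edgeR, and Mmp14 (lower), Timp1, Col20a1, Col7a1 and Lamb2 (higher) under DESeq2. Timp1 was at 103 in C/C mouse 593, described below with Col11a1, and at 7.06 to 25.8 in the other C/C libraries. Without T/T mouse 609 the count was 19, the largest found by leaving out 1 library (33.3% of members, beside 32.8% of all genes). Without C/C mouse 638 the count was 11 (19.6%, beside 23.8% of all genes). The 6 genes gained without mouse 609 were Mmp14, Sparc, Lamb2 and Col1a2, whose values are given beside them, and Nid1 (0.83, limma adjusted p = 0.0422) and Col5a1 (0.78, limma adjusted p = 0.0255). P4ha1 was gained without T/T mouse 658 (0.77, limma adjusted p = 0.0347). With library weights Nid1 and Col5a1 were called higher too.

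**Figure D3:**
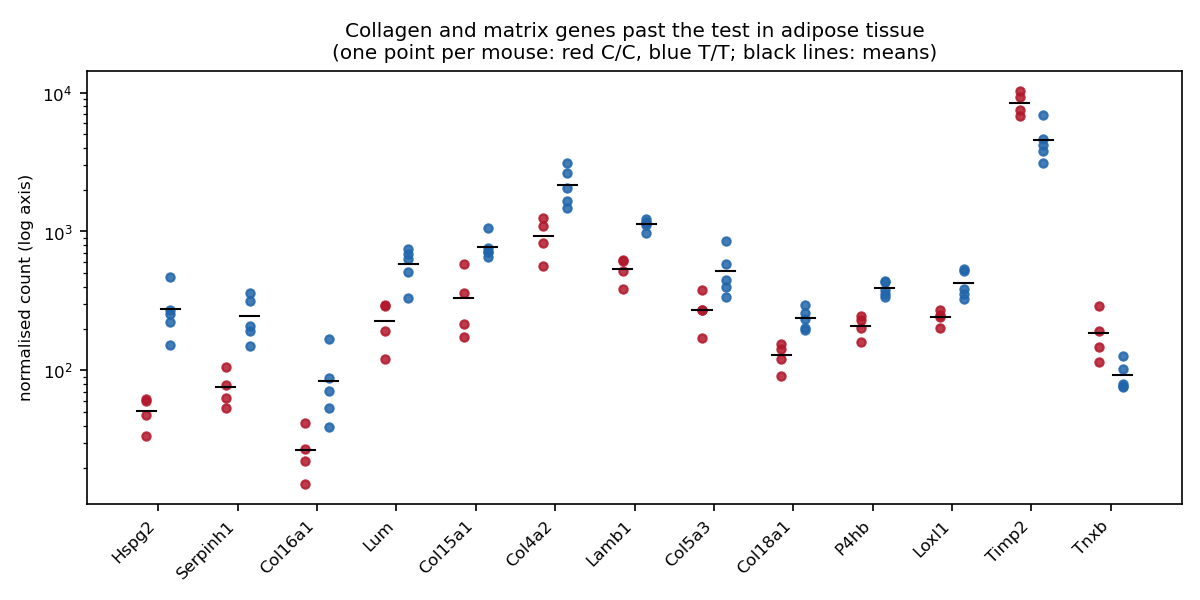
Normalised counts (log axis) of the 13 collagen and matrix genes called in WAT, 1 point per mouse, red for 4 C/C and blue for 5 T/T, with black lines at the group means. From Hspg2 to Loxl1 the red points sit lower, without overlap except in Col16a1 and Col5a3, and for Timp2 and Tnxb they sit higher with 1 library crossing in each.

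C/C mouse 593, the library with ovary markers, also stood apart in some collagens and in Timp1, a metalloproteinase inhibitor. In 7 members it was at least 3-fold above the next highest of the 9 libraries, and no other library was so for any member reaching a count of 10. Col11a1, a fibrillar chain typical of cartilage, was at 1.18, 168, 5.42 and 10.5 in C/C and 2.46, 1.95, 0, 0.992 and 3.79 in T/T. It passed the filter through that 1 library, and its difference of 2.36 ± 1.08 was not called (limma adjusted p = 0.11), although limma called it without C/C mouse 590 (3.21, limma adjusted p = 0.0322) and edgeR on the recovered reads called it at 4.46 (edgeR adjusted p = 0.0278). Col6a4 was at 3.53, 104, 1.08 and 7.03 in C/C and 14.8, 2.92, 0, 0.992 and 17.4 in T/T, and Timp1 at 7.06, 103, 7.59 and 25.8 and 9.03, 5.84, 12.3, 18.8 and 10.6. The other 4 were Col4a4 with 199 in mouse 593 and 30.1 to 54.6 elsewhere, Col4a3 with 21.5 and 0 to 5.88, Col26a1 with 16.8 and 0 to 0.758, and Col9a2 with 15.9 and 0 to 1.52. Without mouse 593, Col11a1 and Col6a4 no longer reached the mean of 10.

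**Figure D4:**
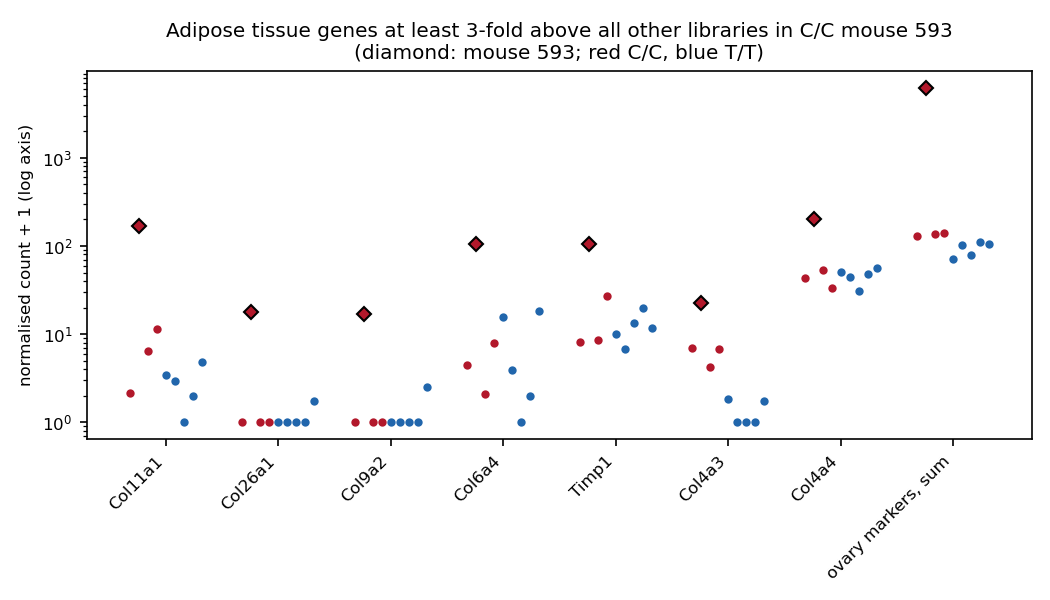
Normalised count + 1 (log axis) in the 9 WAT libraries for the 7 collagen and matrix genes that were at least 3-fold above all others in C/C mouse 593, and the sum of the ovary markers, with mouse 593 as diamonds, other C/C in red and T/T in blue. The diamonds stand above every other point, at 168 for Col11a1 and 6173 for the ovary markers before 1 is added.

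Beyond the members, 5 lists of related genes were read in the same fit. Of genes for collagen biosynthesis 8 of 20 tested were called, 5 higher and 3 lower, with a median of 0.030. P3h3, a collagen prolyl hydroxylase family member, rose from 35.9 ± 10.6 (SD, n = 5) in T/T to 108 ± 27.3 (SD, n = 4) in C/C (log2 difference 1.58, limma adjusted p = 0.0018), Plod2, a lysyl hydroxylase, rose by 1.13, and P4ha2, another prolyl 4-hydroxylase subunit, fell by 1.52. Subunits and enzymes of 1 pathway were thus found on both sides. Of matrix receptors 10 of 25 were called, 4 higher and 6 lower, with a median of -0.13, among them dystroglycan (Dag1), a laminin and perlecan receptor, at -1.57 (limma adjusted p = 0.000732), integrin β5 (Itgb5) at -1.82 and integrin αv (Itgav) at 1.44. Of TGFβ pathway genes 6 of 20 were called, 2 higher and 4 lower (median 0.021), led by the latent TGFβ binding proteins Ltbp4 (-0.94) and Ltbp3 (-0.93) and by thrombospondin 1 (Thbs1, 2.19). Of matrix turnover genes 8 of 27 were called, 3 higher and 5 lower (median 0.011), with cathepsin L (Ctsl) at -2.43, Mmp19 at -1.22 and Adamts1 at -1.30. Of other matrix genes 10 of 44 were called, 6 higher and 4 lower (median 0.29), with matrix Gla protein (Mgp) at -2.34, Smoc1 at -2.05 and fibulin 5 (Fbln5) at -1.10, the last 3 all lower. The shares called ranged from 22.7% to 40% beside the 32.1% of all genes.

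As a whole, the collagens took 0.268% ± 0.0355 (SD, n = 4) of the reads in C/C and 0.344% ± 0.0831 (SD, n = 5) in T/T WAT, and their sums overlapped, with 0.221% to 0.308% in C/C and 0.269% to 0.465% in T/T. The sums of 2 of the 9 groups did not overlap, where 26.1% of all single genes in WAT did not. The 3 folding genes summed to normalised counts of 363 to 459 in C/C and 537 to 915 in T/T, and the 5 proteases and inhibitors to 10686 to 14391 in C/C and 6764 to 10473 in T/T. Most of the latter sum is Timp2 (mean 8418 ± 1613 in C/C and 4517 ± 1419.5 in T/T, SD), while both proteases in it had differences below 0 that were not called (Mmp14 -0.74 and Mmp2 -0.38). The basement membrane collagens summed to 3868 to 4974 in C/C and 4679 to 10037 in T/T, and the fibrillar collagens to 4702 to 7588 and 4999 to 8366. These sums were not tested.

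In liver no member was called between the genotypes. Nor was any of the 11710 genes tested (0%), and at an unadjusted limma p under 0.05 there were 231 genes (1.97%) and no member, with edgeR and DESeq2 also calling 0 genes at 249 and 225 under that unadjusted p. Differences of the 43 tested members lay between -0.43 and 0.54 with a median of 0.0084, and their standard errors between 0.11 and 0.46. Mmp2, gelatinase A, had the lowest p, with 37.0, 29.9, 23.7, 31.0 and 28.5 in C/C (mice 590, 591, 592, 638 and 639) and 29.2, 29.6, 52.4, 41.7 and 54.8 in T/T (mice 607, 608, 657, 658 and 659). Its ranges overlapped, at -0.42 ± 0.22 (exact two-sided permutation p = 0.103, where 252 groupings allow no less than 0.00794). Col8a1, a short-chain collagen, followed at 0.54 ± 0.37 with 27.1, 16.3, 16.4, 9.31 and 10.6 in C/C and 12.3, 3.82, 11.0, 9.88 and 17.6 in T/T. Loxl2 was at 0.48 ± 0.37 with 24.4, 15.4, 20.1, 14.5 and 16.9 and 19.8, 4.78, 8.53, 13.2 and 26.9. Both were low and overlapped between genotypes.

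Members with high counts in liver, and the chains described in WAT, were not called. Col18a1, the most abundant collagen there, was at 2643, 2479.8, 2805, 2751 and 3147 in C/C and 2849, 2272, 2927, 2516 and 2192 in T/T, a difference of 0.12 ± 0.12, with overlapping ranges, unlike in WAT. P4hb differed by -0.00062 ± 0.11, Dcn by 0.036 ± 0.13 and Bgn by -0.12 ± 0.21. Fn1 was at 5929, 4643, 5718, 5655 and 5354 in C/C and 4659, 6169, 6430.3, 5400.3 and 4397 in T/T, a difference of 0.024 ± 0.13. Col4a1 had 257, 176, 274, 226 and 224 and 222, 181, 240.2, 149 and 307 (0.10 ± 0.17), and Sparc 1332, 993, 1199.7, 1199 and 1317 and 1499, 985, 1470.4, 1072 and 1779 (-0.14 ± 0.15). All of these ranges overlapped. Col1a1 was at 116, 109.5, 62.0, 64.1 and 92.9 and 79.2, 66.9, 107, 63.7 and 187 (-0.11 ± 0.28) and Col3a1 at 139, 137, 64.7, 120.0 and 83.4 and 136, 99.4, 129, 92.2 and 229 (-0.31 ± 0.26), with T/T mouse 659 highest for both. Of the non-collagen members tested in WAT, 4 (Lox, Tnxb, Lama2 and Timp1) had means below 10 in liver.

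The tissues differed in which matrix genes they held, shown here as shares of reads and as CPM (reads of a gene scaled to the same library total) without a test because the tables were normalised apart. Collagens took 0.0641% ± 0.00306 (SD, n = 5) of the reads in C/C and 0.0622% ± 0.00543 (SD, n = 5) in T/T liver. Col1a1 had 343 ± 114 CPM (SD, n = 4) in C/C WAT and 13.2 ± 4.01 (SD, n = 5) in C/C liver, whereas Col18a1 had 26.9 ± 5.85 and 408 ± 23.6. Fn1 (113 ± 34.3 in WAT and 807 ± 82.6 in liver) and P4hb (43.9 ± 7.65 and 513 ± 25.4) were also higher in liver, and Sparc (5699 ± 1829 and 178 ± 18.98) in WAT. Col13a1 was counted in liver with 10.8 ± 3.65 CPM (SD, n = 5) in C/C, and in WAT with 0.231 ± 0.184 (SD, n = 4) in C/C and 1.84 ± 0.687 (SD, n = 5) in T/T. In WAT its normalised counts were 1.18, 0, 2.17 and 1.17 in C/C and 4.92, 10.7, 5.58, 7.93 and 12.9 in T/T, without overlap but with a mean below 10, and it was called lower where no minimum was set (-2.18, limma adjusted p = 0.00806).

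The genotype difference itself differed between the tissues for 10 of the 42 members tested in both (23.8%), against 29.2% of all 10404 genes in that fit. All 10 had been called in WAT, 9 with a lower and 1 with a higher C/C level there. The 3 with the lowest p were Hspg2, with a difference between tissues of -2.54 ± 0.37 (limma adjusted p = 7.26e-05), Lamb1 with -1.17 ± 0.23 (limma adjusted p = 0.00092) and Serpinh1 with -1.91 ± 0.40 (limma adjusted p = 0.00166). In liver the same genes were at 0.19, 0.078 and 0.25. P4hb, Col18a1, Col4a2, Lum, Col15a1, Col16a1 and Timp2 were the other 7. Loxl1 and Col5a3 were called in WAT but not in this comparison, and Tnxb was too scarce in liver to enter it. Nid1, Sparc and Col20a1 were not called here but were called under some of the alternatives.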

How the data were processed

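QuantSeq 3′ mRNA-Seq FWD libraries, which give stranded reads from the 3′ ends of polyadenylated transcripts, were made from 250 ng of liver or 500 ng of WAT RNA. The labels list 76 run samples, 4 per mouse and tissue, which the tables merge into 1 column for each mouse. Groups were taken from tissue and genotype as labelled, and 1 WAT column without a label was not used. The authors deposited 1 table per tissue of normalized counts, here called signal values: gene counts divided by 1 size factor per library. The submitters' processing notes name FastQC 0.11.9, HISAT2, SAMtools 1.12, HTSeq, DESeq2 and GRCm39, without roles. Dividing each library by its smallest value above 0 gave whole reads again (100% of values within 1e-06 of a read). They count reads and not independent molecules, so counting error was not used and errors are between mice.

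The members and all gene lists were chosen with earlier results of these data known. C/C was compared with T/T with limma 3.58.1 (R 4.3.3; trend and robust) on log2(value + 1) for genes with a mean of at least 10, with Benjamini-Hochberg adjustment over all genes tested and a threshold of 0.05, so fold changes of low genes are understated. The tissue difference was a contrast over all 19 libraries. Whether mice were littermates or sampled together is not given in the sources used here. The 6 mice with both tissues pair the samples. Correlations across genes of their deviations from the group means in the 2 tissues lay between -0.203 and 0.156, and mouse as a block (consensus correlation -0.114) left 10 members called. Members named were those called, the 2 with the lowest p of each of 9 groups and Col1a1, Col3a1, Col4a1, Col6a1, Fn1 and Sparc in WAT; Col1a1, Col3a1, Col4a1, Fn1, Sparc and the 3 with the lowest p in liver; and the 3 with the lowest p for the tissue difference and, in WAT, for each list of related genes. Members outside this rule were named for completeness, and the partner ratios and the genes apart in mouse 593 were chosen after their values were seen. Alternatives were pseudocounts of 0.5 and 10, no minimum or a minimum mean of 50, quantile normalisation, equal totals, library weights, a threshold of 0.1, a term for mouse numbers, DESeq2 1.42.0 and edgeR 4.0.16 run on those whole reads, and leaving out each mouse. The mouse number term set mice 638, 639, 657, 658 and 659 apart from the rest, a split that no label gives as a batch. The scripts were tested on simulated data. Sequences came from GENCODE vM21 (GRCm38) and the RefSeq miRNA table (GRCm38.p6), and all 57 members tested in WAT matched a transcript.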

Additional observations from a re-analysis of the deposited data

Results flagged for a closer look

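A library far from the others of its group was found for 2 of 66 groups of libraries looked at, where chance gives about 1 in 20. In C/C WAT, Col11a1 was at 168 in mouse 593 and at 1.18 to 10.5 in the other 3 mice. In T/T WAT, Col15a1 was at 1054 in mouse 609 and at 657 to 760 in the other 4, which leaves all T/T values above all C/C values with or without that mouse.

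Of the 42 members tested in both tissues 10 (23.8%) were called for the tissue difference, beside 29.2% of all genes. The genotype difference in WAT minus that in liver passed the limma test of the difference itself for these 10. It was -2.54 for Hspg2, -1.91 for Serpinh1, -1.65 for Col15a1, -1.64 for Col16a1, -1.41 for Lum, -1.28 for Col4a2, -1.17 for Lamb1, -1.02 for Col18a1, -0.90 for P4hb and 0.96 for Timp2 on the log2 scale. In liver these genes lay between -0.034 and 0.29, with every C/C range overlapping the T/T range. The first 9 are basement membrane, collagen-folding and fibril-associated genes, and Timp2 alone is a protease inhibitor. Genes of the same kinds were also tested and not called. They include Col4a1 and, with positive differences, Lamb2, Lama4, Lamc1, Nid1, Nid2 and P4ha1. Mmp2, Mmp14 and Timp3 were not called either.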

How the results depend on the processing

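Counts of called members stayed within 1.5 times the value given in the report under every alternative run. In WAT they ranged from 13 to 18 over the settings other than leaving out a mouse, and from 11 to 19 over the mice left out. In liver they stayed at 0. For the tissue difference they ranged from 7 (a minimum mean of 50, under which Col15a1, Col16a1 and Serpinh1 were not tested) to 12, from 10 to 12 over the mice left out, and were 10 with mouse as a block, which changed no call of a member. All 13 WAT genes were kept by every setting other than leaving out a mouse, except Col5a3 under library weights (-0.56). The sign of Col1a1 in WAT turned under library weights (0.11) and over the mice left out (-0.23 to 0.18), that of Col4a1 under library weights (0.15) and over the mice left out (-0.16 to 0.17), and that of Col6a1 under quantile normalisation (-0.12), equal totals (-0.053), the mouse number term (-0.042), edgeR (-0.13), DESeq2 (-0.11) and leaving out mice (-0.15 to 0.26). In liver Col1a1 (-0.24 to 0.15), Col4a1 (-0.028 to 0.23) and Fn1 (-0.047 to 0.090) turned with mice left out. The cause was not tested. With 4 and 5 mice, the median standard error of 0.28 on the log2 scale limits what can be seen in WAT.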
